A study of Homo sapiens with 6 samples.

Results

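RNA-sequencing of NK92 cells was used to describe 9 genes of the MHC class I pathway: the heavy chains HLA-B, HLA-C, HLA-E and HLA-F, the light chain B2M, the peptide transporter subunits TAP1 and TAP2, the bridging factor TAPBP and the transcriptional coactivator NLRC5. They were taken by symbol from the 36601 genes of the count table, and each symbol matched 1 row. NK92 (NK-92 in the sample labels) is an IL-2-dependent cell line from a human NK cell lymphoma. Stable lines carried either the control hairpin shCtrl or the hairpin shmiR155HG, which is directed at the lncRNA miR155HG. Each hairpin had 3 libraries. All 6 libraries came from cells given 1000 U/mL of IL-2 together with 10 ng/mL of IL-12 for 12 h, so cells without cytokine were not part of the comparison. The methods speak in general of separate experimental trials but do not tie them to these libraries, and the labels do not say whether the 3 libraries of a group came from separate transductions or cultures, so p-values may measure technical spread. The shRNA label and the line that carries it cannot be told apart in this design.

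MHC class I molecules display peptides from inside the cell. A polymorphic heavy chain folds with beta-2-microglobulin in the endoplasmic reticulum, TAP1 and TAP2 form the pump that brings peptides in from the cytosol, and tapasin (TAPBP) holds an empty class I molecule beside that pump. NLRC5 joins DNA-bound factors at the SXY module of class I promoters, and interferon-gamma raises the whole set. NK cells both carry class I molecules and read those of other cells, and HLA-E is the ligand of the inhibitory NKG2A receptor.

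Each gene exceeded 1 CPM (a count scaled to library size) in 2 or more libraries and was tested, as were 12263 genes in all. The total count ranged from 36588321 to 39157264 in shCtrl and from 33454786 to 38481972 in shmiR155HG libraries. MIR155HG, the shRNA target, had 73, 67 and 62 counts in shCtrl and 28, 19 and 10 in shmiR155HG libraries, so each shmiR155HG library was below every shCtrl library. Of the NK markers, 8 of 9 were tested (CD7 was not), and their summed level was 3948 to 3954 CPM in shCtrl and 3459 to 3566 CPM in shmiR155HG. GZMB, the granzyme B gene, had the largest change among them, from 1195 ± 42.5 to 543 ± 29.9 CPM (SD, n = 3 libraries each), while IL2RB, a chain of the IL-2 receptor, was called higher, from 1006 ± 44.9 to 1270 ± 17.8 CPM. Of the 8 NK markers tested, 1 was called higher and 4 lower. Besides GZMB, those called lower were NCR3, PRF1 and CD244, with log2 fold changes of -0.24, -0.20 and -0.12. Without GZMB the other 7 summed to 2710 to 2786 CPM in shCtrl and 2948 to 2995 CPM in shmiR155HG. IL2RB was the only marker of these 7 called higher, so the higher sum does not describe each of them. Of the T cell markers 3 of 8 were tested (579 to 602 CPM in shCtrl, 624 to 663 CPM in shmiR155HG), with TRBC2 called higher and CD3D, CD3G, CD4, CD5 and CD8B at 35 counts or fewer. Of the B cell markers only PAX5 was tested and it was called higher (228 to 264 CPM against 340 to 344 CPM), with MS4A1 at 5 counts or fewer. The 2 of 5 myeloid markers tested summed to 12.0 to 20.8 CPM and 10.4 to 13.2 CPM, and no erythroid or fibroblast marker was tested. Whether other cells had a part in the results below was not tested.

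The promoters of the genes carry sequence elements that the class I pathway is known for, and 5 windows are shown here, from genes that rose (HLA-B, HLA-C and TAP1) and genes not called in the main test (B2M and TAPBP). RefSeq promoter sequences (build GRCh38.p14) were at hand for 7 of the 9 genes, while HLA-E and NLRC5 are named only. The windows hold the 200 bases before the RefSeq start, written 5′ to 3′ on the gene's strand, with motif matches in capitals. They lie at chr6:31357180-31357379 (HLA-B, minus strand), chr6:31272093-31272292 (HLA-C, minus strand), chr15:44711317-44711516 (B2M, plus strand), chr6:32853705-32853904 (TAP1, minus strand) and chr6:33314079-33314278 (TAPBP, minus strand).
HLA-B: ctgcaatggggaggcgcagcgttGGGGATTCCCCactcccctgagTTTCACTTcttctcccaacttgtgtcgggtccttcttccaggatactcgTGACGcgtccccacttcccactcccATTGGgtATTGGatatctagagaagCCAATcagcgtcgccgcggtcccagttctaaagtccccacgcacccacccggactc
HLA-C: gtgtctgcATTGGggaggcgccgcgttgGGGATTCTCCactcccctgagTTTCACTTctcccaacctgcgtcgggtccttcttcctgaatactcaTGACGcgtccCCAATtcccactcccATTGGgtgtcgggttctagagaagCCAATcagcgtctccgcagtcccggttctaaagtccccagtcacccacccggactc
B2M: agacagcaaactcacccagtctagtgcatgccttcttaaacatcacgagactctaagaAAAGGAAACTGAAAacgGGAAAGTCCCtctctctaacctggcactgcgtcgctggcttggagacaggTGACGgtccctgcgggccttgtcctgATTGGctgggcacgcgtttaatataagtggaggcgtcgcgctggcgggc
TAP1: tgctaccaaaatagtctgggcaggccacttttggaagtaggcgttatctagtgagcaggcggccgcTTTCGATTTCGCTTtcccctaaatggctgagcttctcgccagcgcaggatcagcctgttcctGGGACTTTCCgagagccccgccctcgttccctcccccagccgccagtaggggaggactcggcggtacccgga
TAPBP: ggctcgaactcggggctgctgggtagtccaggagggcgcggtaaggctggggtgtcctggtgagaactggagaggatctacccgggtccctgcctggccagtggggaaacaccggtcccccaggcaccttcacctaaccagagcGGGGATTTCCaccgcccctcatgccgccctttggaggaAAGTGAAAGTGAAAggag
The motifs searched, on both strands, were an IRF core (AANNGAAA), the X2 box (TGACG), the Y box (ATTGG), a STAT core (TTCNNNGAA) and the NF-kB motif by name. Of 35116 promoter windows of this length, 16.1% held the IRF core, 18.4% the X2 box, 28.0% the Y box, 5.09% the STAT core and 8.14% the NF-kB motif. The windows of HLA-B, HLA-C and B2M each held an IRF core, an X2 box and a Y box together, as did 0.683% of all windows. Those 3 windows also held an NF-kB match, which in HLA-B read on both strands and at a pair of overlapping positions. The TAP1 and TAPBP windows each held an overlapping pair of IRF cores and an NF-kB match, and neither held the X2 or Y box. A second RefSeq start of TAP1, with a window at chr6:32852762-32852961, had a STAT core there and none of the other motifs. The TAP2 window held an overlapping pair of IRF cores and an X2 box, and the HLA-F window an IRF core and a pair of Y boxes. A match describes letters only, and binding at these positions was not measured.

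Heavy chain transcripts were more abundant in shmiR155HG cells. HLA-B, HLA-C and HLA-E rose by 17.5%, 17.1% and 18.9%, and HLA-F had a smaller difference that did not pass the test. HLA-B and HLA-C are classical class I chains that present peptides to T cells and serve as ligands of KIR receptors. The HLA-B gene (chr6:31353872-31367067 on hg38, GENCODE) had 1604, 1642 and 1655 CPM in shCtrl replicates 1, 2 and 3 and 1944, 1937 and 1878 CPM in shmiR155HG replicates 1, 2 and 3. Every shmiR155HG library was above every shCtrl library, with a gap between the groups wider than the spread within either. The log2 fold change was 0.23 (adjusted p = 8.88e-07, SE 0.028, edgeR quasi-likelihood test), with a 95% interval of 12.9% to 22.4%. HLA-C (chr6:31268749-31272130) had 1097, 1081 and 1123 CPM in shCtrl and 1284, 1321 and 1260 CPM in shmiR155HG libraries. The groups were again apart, and the log2 fold change was 0.23 (adjusted p = 2.80e-06, SE 0.030).

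HLA-E, a chain with little variation between people that presents leader peptides of other class I chains to NKG2A and NKG2C, had the highest fold of the 9 genes. Its levels were 313, 310 and 312 CPM in shCtrl and 367, 379 and 366 CPM in shmiR155HG replicates 1, 2 and 3. The control libraries were nearly level with each other, with a coefficient of variation of 0.468%, and no shmiR155HG library came near them. The log2 fold change was 0.25 (adjusted p = 4.91e-06, SE 0.034) for this gene at chr6:30489509-30494194. HLA-F, a nonclassical chain that can reach the surface without peptide, lay far below the others (chr6:29722775-29738528). It had 60.2, 58.1 and 55.6 CPM in shCtrl and 67.5, 64.4 and 58.7 CPM in shmiR155HG libraries. The third shmiR155HG library fell inside the shCtrl range, so the groups overlapped. The difference of 0.13 on the log2 scale (adjusted p = 0.192, SE 0.066) did not pass the test, and its 95% interval ran from -0.139% to 20.5%. HLA-F shares 535 exon bases with its antisense gene HLA-F-AS1, and the strand used in counting is not given in the sources used here.

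Reads of one heavy chain gene can be placed on a near-identical paralog, and NK92 alleles were aligned to the reference genome, so single heavy chain counts are uncertain. HLA-B also shares 1421 exon bases with the pseudogene DHFRP2 on its own strand. The 4 heavy chain counts were therefore also summed within each library. The sum was 3075, 3091 and 3145 CPM in shCtrl and 3663, 3702 and 3563 CPM in shmiR155HG replicates 1, 2 and 3. The groups were apart by more than their spread, with a log2 fold change of 0.23 (adjusted p = 3.50e-07).

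**Figure D1:**
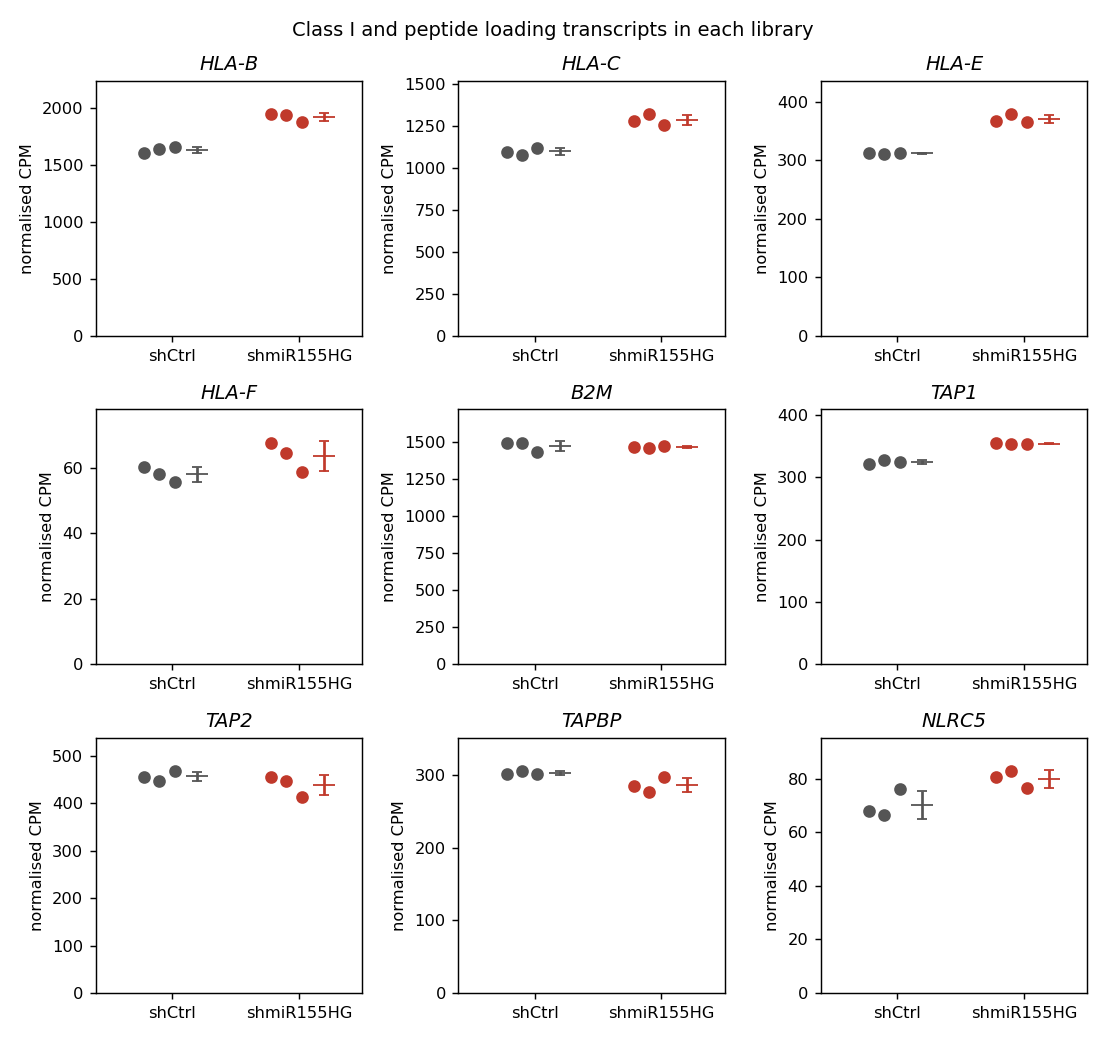
Normalised CPM (TMM) of each of the 9 genes in each library, on a linear axis from 0; points are libraries, and the bar beside them is the mean ± SD of 3 libraries. The shmiR155HG points of HLA-B, HLA-C, HLA-E, TAP1 and NLRC5 all lie above the shCtrl points, those of TAPBP all lie below, and those of HLA-F, B2M and TAP2 overlap with them.

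B2M, the invariant light chain that pairs with every heavy chain, did not move with them. The gene (chr15:44711358-44718851) had 1493, 1490 and 1432 CPM in shCtrl and 1462, 1454 and 1469 CPM in shmiR155HG replicates 1, 2 and 3. All shmiR155HG libraries fell within the shCtrl range. The log2 fold change was -0.0096 (adjusted p = 0.874, SE 0.029), with a 95% interval from -4.64% to 3.48%, which lies below the intervals of HLA-B, HLA-C and HLA-E. Within a library, B2M stood at 0.474 times the summed heavy chain CPM in shCtrl and at 0.401 times in shmiR155HG, a difference in log2 ratio of -0.24 (SE 0.035). The ratio was lower in each shmiR155HG library than in any shCtrl library. With the correction for GC content described below, the difference was -0.14, with the same exact permutation p. The exact two-sided permutation test gave p = 0.1, the smallest value that 3 against 3 libraries allow, and 0.233 after adjustment over the 7 pairs compared.

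Of the transporter subunits, whose proteins form a single pump, TAP1 rose by 9.11% in the main test, a call it lost with the correction for GC content, and TAP2 did not pass. TAP1 (chr6:32845209-32853816) had 321, 328 and 325 CPM in shCtrl and 356, 354 and 354 CPM in shmiR155HG replicates 1, 2 and 3. The 3 shmiR155HG libraries were nearly equal, and all were above the controls. The log2 fold change was 0.13 (adjusted p = 0.00985, SE 0.034). TAP2 (chr6:32821833-32838739) had 455, 448 and 468 CPM in shCtrl and 455, 448 and 414 CPM in shmiR155HG libraries. The first and second libraries of both groups were at the same level, and the third of shmiR155HG was the lowest of the 6. Its log2 fold change was -0.058 (adjusted p = 0.321, SE 0.036), with a 95% interval from -8.78% to 1.14%. The ratio of TAP1 to TAP2 CPM was 0.711 in shCtrl and 0.809 in shmiR155HG, a log2 difference of 0.19 (SE 0.047) with no overlap between the groups (exact two-sided permutation test, p = 0.1, adjusted p = 0.233). With the correction for GC content this difference was 0.147, with the same exact permutation p.

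TAP1 shares 672 exon bases with PSMB8-AS1 on the opposite strand, and TAP2 shares 2023 with ENSG00000250264, a protein-coding gene on its own strand, so reads from these stretches are of uncertain origin. The genes beside the TAP genes encode subunits of the immunoproteasome, which cuts the peptides that TAP carries. PSMB8 had 182 ± 8.95 CPM in shCtrl and 193 ± 4.2 CPM in shmiR155HG, and PSMB9 had 110 ± 10.1 and 114 ± 3.42 CPM (SD, n = 3). Neither passed the test, with log2 fold changes of 0.088 (adjusted p = 0.175, SE 0.042) and 0.052 (adjusted p = 0.607, SE 0.056).

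TAPBP, which encodes tapasin, was the single member with lower values in every shmiR155HG library. It had 302, 306 and 302 CPM in shCtrl and 285, 278 and 298 CPM in shmiR155HG replicates 1, 2 and 3 (chr6:33299694-33314284). The groups were apart, but the third shmiR155HG library came close to the controls. The log2 fold change of -0.081 (adjusted p = 0.141, SE 0.036) did not pass the test. TAPBP shares 1397 exon bases with an lncRNA gene on the opposite strand. Relative to TAP1, TAPBP stood at 0.934 times in shCtrl and 0.809 times in shmiR155HG, a log2 difference of -0.21 (SE 0.030) without overlap (exact two-sided permutation test, p = 0.1, adjusted p = 0.233).

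NLRC5, the coactivator of the class I genes, rose by 14.0% in the main test. The gene (chr16:56989485-57083531) had 68.1, 66.4 and 76.0 CPM in shCtrl and 80.7, 82.8 and 76.3 CPM in shmiR155HG replicates 1, 2 and 3. The groups did not overlap, but the highest shCtrl library nearly met the lowest shmiR155HG library. The log2 fold change was 0.19 (adjusted p = 0.0371, SE 0.062). The call did not hold when shCtrl replicate 1 or 2 or shmiR155HG replicate 1 or 2 was left out, with log2 fold changes of 0.17, 0.15, 0.18 and 0.16 and adjusted p = 0.124, 0.179, 0.108 and 0.166. The TAP1 to NLRC5 ratio was 4.65 in shCtrl and 4.44 in shmiR155HG, and the groups overlapped (exact permutation test, p = 0.5, adjusted p = 0.7).

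**Figure D2:**
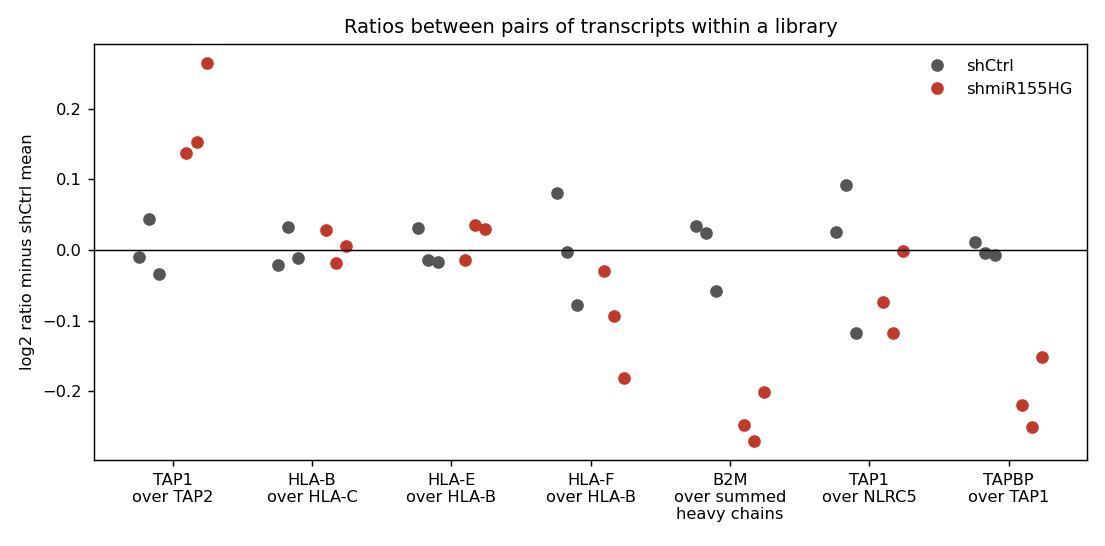
Log2 ratio of CPM between 2 transcripts within each library, minus the shCtrl mean of that ratio; each point is 1 of 3 libraries per group. TAP1 over TAP2, B2M over the summed heavy chains and TAPBP over TAP1 separate the groups, with differences of 0.19, -0.24 and -0.21, and the other 4 pairs overlap.

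The proportions of the heavy chains to each other were compared in the same way. HLA-B stood at 1.48 times the CPM of HLA-C in shCtrl and at 1.49 times in shmiR155HG, a log2 difference of 0.0052 (SE 0.021, exact permutation p = 0.9, adjusted p = 0.9). The HLA-E to HLA-B ratio was 0.191 and 0.193 (log2 difference 0.016, SE 0.022, exact permutation p = 0.6, adjusted p = 0.7). The HLA-F to HLA-B ratio was 0.0355 and 0.0331 (log2 difference -0.10, SE 0.064, exact permutation p = 0.2, adjusted p = 0.35). None of these 3 ratios separated the groups. A test of this size cannot go below 0.1 for 1 pair, so it neither sets these pairs apart nor shows that they kept equal proportions.

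Per kilobase of the canonical transcript, B2M was the most abundant of the 9 in shCtrl, with 1560 CPM per kb. HLA-B followed with 1064 and HLA-C with 714 CPM per kb. HLA-E and TAP1 lay together at 122 and 121 CPM per kb, and their values overlapped between libraries. TAPBP had 87.9, TAP2 81.0, HLA-F 39.2 and NLRC5 10.3 CPM per kb. The order was the same in shmiR155HG cells, where B2M had 1550, HLA-B 1250, HLA-C 836, HLA-E 146, TAP1 132, TAPBP 83.1, TAP2 77.8, HLA-F 42.9 and NLRC5 11.8 CPM per kb. TAPBP was above TAP2 in every shCtrl library, while their shmiR155HG ranges met at 80.5 and 80.6 CPM per kb. In shmiR155HG the lowest HLA-E library, at 144 CPM per kb, was above the highest TAP1 library, at 132 CPM per kb. The 9 genes together took 0.571% to 0.572% of all counts in shCtrl and 0.617% to 0.632% in shmiR155HG libraries. In bulk RNA, more cells with a transcript and more transcript per cell cannot be told apart.

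Of the 9 genes, 5 were called higher at an adjusted p under 0.05, where 7.26% of all genes tested were called higher. None of the 9 was called lower, against 8.02% of all genes, and 15.3% of all genes were called in either direction. DESeq2, limma-voom and the exact test with adjusted p-values called 0 lower too, while 1 gene with a negative fold change, TAPBP, passed in the main test before adjustment. The groups did not overlap for 6 of the 9, of which 5 were higher and 1 lower, against 30.8% of all genes. The median log2 fold change was 0.13 over the 9 genes and 0.00097 over all genes. The median absolute log2 fold change of all genes called was 0.26, close to those of HLA-B, HLA-C and HLA-E and above those of TAP1 and NLRC5. Under the thresholds of the study (exact test of edgeR, unadjusted P under 0.01 and more than a 1.2-fold change), 0 of the 9 were called, against 8.31% of all genes. HLA-B, HLA-C, HLA-E, TAP1 and NLRC5 had exact test P values under 0.01, from 2.16e-10 to 0.00584, and fold changes between 1.09 and 1.19.

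**Figure D3:**
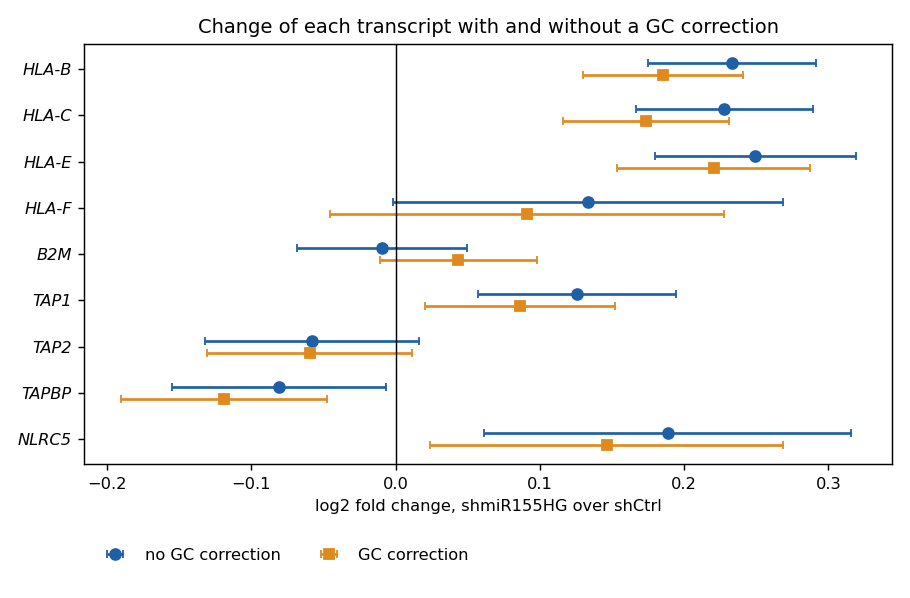
Log2 fold change of shmiR155HG over shCtrl for each gene with its 95% interval, from the quasi-likelihood test without (circles) and with (squares) a correction for GC content. HLA-B, HLA-C and HLA-E stay above 0.1 in both, TAP1 moves from 0.13 to 0.086, NLRC5 from 0.19 to 0.15 and TAPBP from -0.081 to -0.12.

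Fold changes in these libraries moved with the GC content of the transcript, a measured trend that touches the genes described here. The median log2 fold change was -0.054 for genes under 40% GC and 0.079 for genes above 60% GC. B2M had 39.1% GC and TAP2 48.9%, while the other 7 genes lay between 55.1% and 60.1%. After a correction fitted on all genes, added after the data were seen, HLA-B, HLA-C and HLA-E had log2 fold changes of 0.19, 0.17 and 0.22 (adjusted p = 1.38e-05, 5.57e-05 and 1.57e-05). TAP1 then had 0.086 (adjusted p = 0.0745, SE 0.032) and NLRC5 0.15 (adjusted p = 0.106, SE 0.060), and neither passed. TAPBP did, and was lower by -0.12 on the log2 scale (adjusted p = 0.0193, SE 0.035). B2M changed sign to 0.044 (adjusted p = 0.311, SE 0.026) and again did not pass. With an ordinary loess curve, which left medians of -0.00098 under 40% GC and -0.034 between 55% and 60% GC and so a trend opposite to the uncorrected one, HLA-B and HLA-C fell to 0.15 and 0.14 and stayed called. The part of GC content in the rises of TAP1 and NLRC5 was not tested further.

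**Figure D4:**
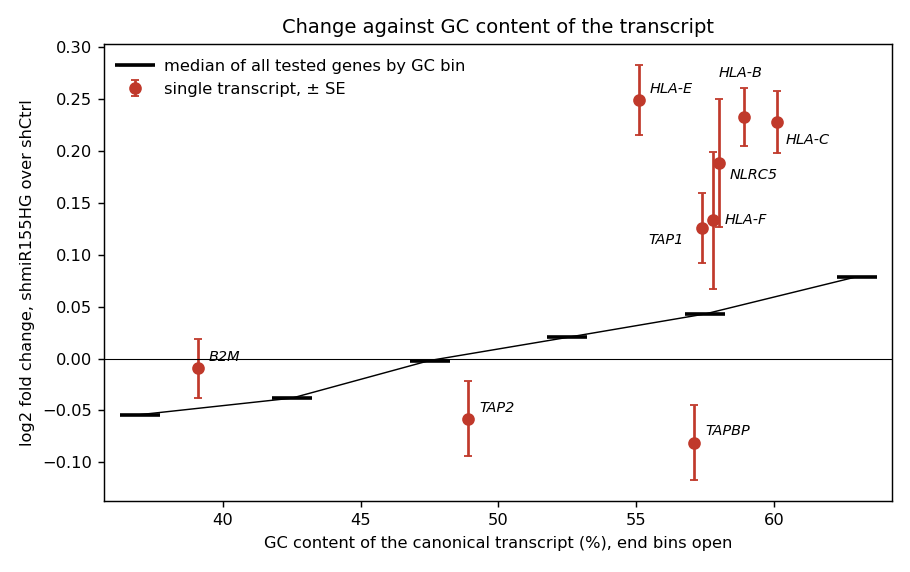
Log2 fold change against GC content (%) of the canonical transcript; points are the 9 genes with their SE, and black bars are medians of all tested genes in 6 GC bins, with the end bins open. HLA-B, HLA-C, HLA-E, NLRC5, HLA-F and TAP1 lie above the medians at their GC content, TAPBP and TAP2 lie below, and B2M lies above a median that is negative there.

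The other genes of the pathway, taken from lists, did not follow the heavy chains. In the list of peptide loading and endoplasmic reticulum quality control genes, 0 of 10 rose and 5 fell, with a median log2 fold change of -0.11. CANX, which encodes the chaperone calnexin that binds new heavy chains, went from 1325 ± 27.1 to 1159 ± 20.5 CPM (SD, n = 3), a log2 fold change of -0.19 (adjusted p = 2.92e-05, SE 0.029). ERAP1, an aminopeptidase that trims peptides to length, fell by 0.17 on the log2 scale (adjusted p = 0.00498, SE 0.042), and UGGT1, the folding sensor of glycoproteins, fell by 0.15 (adjusted p = 0.0243, SE 0.044). The other two were calreticulin (CALR) at -0.13 and ERAP2 at -0.14, named after their values were seen. With the GC correction 4 of the 10 were called lower, since ERAP2 and UGGT1 no longer passed and PRKCSH did. PDIA3, the ERp57 partner of tapasin, had 907 ± 8.54 and 905 ± 15.8 CPM and a log2 fold change of -0.0037 (adjusted p = 0.959).

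Among the 16 genes of peptide supply, which covers proteasome subunits and cytosolic peptidases, 0 rose, 2 fell and the median was -0.022. TPP2, a large cytosolic peptidase, fell by 0.16 (adjusted p = 0.0067, SE 0.041), and LAP3, a leucine aminopeptidase, fell by 0.15 (adjusted p = 0.0239, SE 0.045). With the GC correction TPP2 no longer passed (adjusted p = 0.0637). Of the other class I and class I-like genes, 4 of 14 were tested. MICB, a stress ligand of NKG2D, fell by 0.28 (adjusted p = 0.0028, SE 0.065), and MICA and MR1 did not pass.

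Of 20 regulators of class I transcription, 2 rose and 4 fell, with a median of 0.027. ATF1, a CREB family factor, had a log2 fold change of 0.28 (adjusted p = 0.0329, SE 0.090), although its groups overlapped. IRF1, the interferon-induced activator of class I and TAP1 promoters, had 310 ± 6.67 CPM in shCtrl and 335 ± 3.50 CPM in shmiR155HG, a rise of 0.11 (adjusted p = 0.0258, SE 0.035) that did not pass with the GC correction (adjusted p = 0.0601). Among those that fell were STAT2 (-0.37), a part of the interferon-activated ISGF3 complex, and the Polycomb genes SUZ12 (-0.22) and EZH2 (-0.14), the last named after its value was seen. Polycomb repressive complex 2 is known to silence class I genes in tumour cells. The adjusted p was 0.0138 for STAT2, 4.35e-05 for SUZ12 and 0.00695 for EZH2, and these 3 stayed called with the GC correction. RFX5, RFXAP and RFXANK, the subunits of the RFX complex that NLRC5 works through, had log2 fold changes from -0.063 to 0.081 and did not pass.

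Interferon-gamma, which raises class I expression, was lower at the RNA level. IFNG had 168 ± 7.07 CPM in shCtrl and 127 ± 4.23 CPM in shmiR155HG (SD, n = 3), a log2 fold change of -0.41 (adjusted p = 1.40e-07, SE 0.045). Its receptor chain IFNGR1 fell by 0.35 (adjusted p = 0.00307, SE 0.080), and USP18, an interferon-induced inhibitor of interferon signalling, fell by 0.42 (adjusted p = 0.0239, SE 0.127). In this list of 10 tested genes 4 fell and 1 rose, the latter being IRF1, which the list above also holds, and the median was 0.047. So HLA-B, HLA-C and HLA-E were higher in the same libraries in which IFNG was lower.

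**Figure D5:**
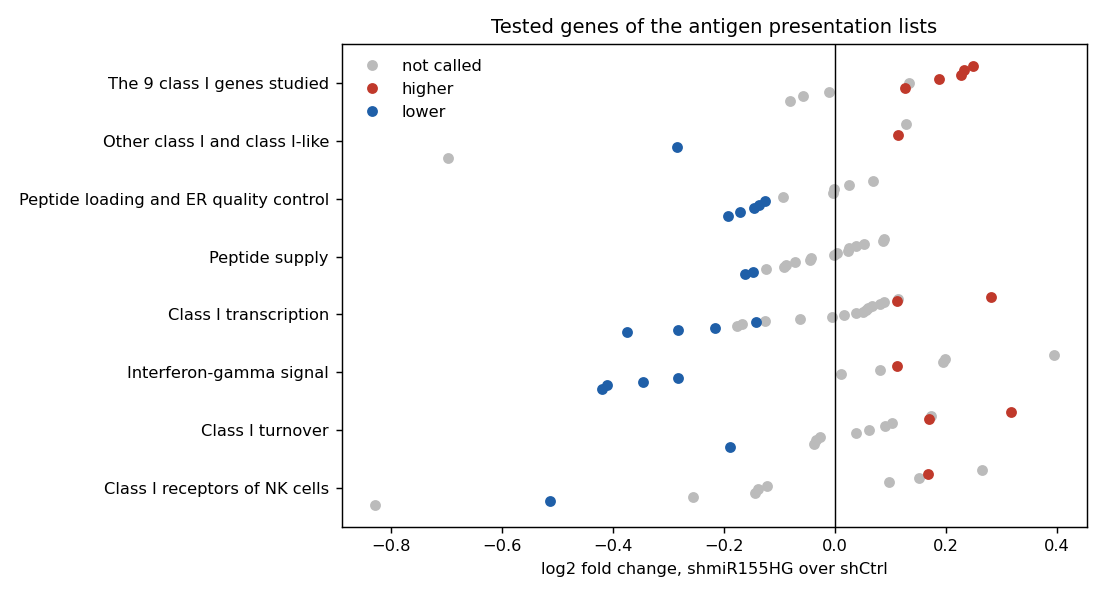
Log2 fold change of every tested gene in each list, with the 9 genes described here on top; colour gives the call at an adjusted p under 0.05. In the top row 5 genes are called higher and none lower, while the peptide loading row has 5 called lower and none higher.

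Genes of class I turnover gave 2 rises and 1 fall among 11 tested, with a median of 0.061. SPPL3, an intramembrane protease that acts on glycosyltransferases, rose by 0.32 (adjusted p = 0.00392, SE 0.075), and SUSD6, which takes part in removing class I molecules from the surface, rose by 0.17 (adjusted p = 0.0195, SE 0.050). SPPL2A, a related protease of lysosomes and endosomes, fell by 0.19 (adjusted p = 0.00299, SE 0.043). Among 10 tested class I receptors of NK cells, 1 rose and 1 fell, with a median of -0.13. KLRC1, which encodes NKG2A, the inhibitory receptor for HLA-E, rose from 102 ± 5.91 to 115 ± 3.42 CPM (log2 fold change 0.17, adjusted p = 0.0252, SE 0.051). Its partner CD94 (KLRD1) had a log2 fold change of 0.098 (adjusted p = 0.338). KIR2DL4, a receptor described as binding HLA-G, fell by 0.51 (adjusted p = 3.33e-07, SE 0.059), while HLA-G itself had 12 counts or fewer in every library.

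The mean of the 9 genes on a centred log2 CPM scale was -0.058, -0.065 and -0.045 in shCtrl and 0.073, 0.070 and 0.024 in shmiR155HG replicates 1, 2 and 3. The genes outside the set whose log2 CPM followed this mean most closely over the 6 libraries were ELFN1, SYNJ2, FOSL2, ISOC2 and ARHGEF12, with Pearson correlations of 0.998, 0.996, 0.996, 0.995 and 0.993. With 6 libraries that fall into 2 groups these values are a description, and they rest on the difference between the groups. SYNJ2 lay near the filter of 1 CPM, with means of 0.428 CPM in shCtrl and 1.57 CPM in shmiR155HG, and ELFN1 had 4.74 and 6.44 CPM. ELFN1 and ISOC2 were not called in the main test (adjusted p = 0.121 and 0.169), while SYNJ2, FOSL2 and ARHGEF12 were called higher.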

How the data were processed

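Gene counts came from RNA-seq of poly(A) RNA from 3 shCtrl and 3 shmiR155HG libraries of NK92 cells. Reads were mapped by the authors to hg38 (HISAT2) and quantified with StringTie (-e) and prepDE.py3, and the authors deposited whole-number counts, one per gene, that were not normalised. The annotation release, strandedness and read length given to prepDE.py3 are not given in the sources used here. For shmiR155HG replicates 2 and 3 the title names miR155HG but the treatment label a differently numbered host gene, and the title was followed.

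Counts were analysed in R 4.3.3. Genes above 1 CPM in 2 or more libraries were kept, and libraries were scaled by TMM. The main test was edgeR 4.0.16's quasi-likelihood test (robust), with Benjamini-Hochberg adjustment over 12263 genes, and single-gene adjusted p-values come from it. SD is over normalised CPM and SE is of the log2 fold change. Total counts were 33454786 to 39157264 per library, and the biological coefficient of variation was 8.71%. Members and lists were chosen with earlier results of these data known. Named genes were the 9 members, up to 3 called rises and 3 called falls per list, PSMB8, PSMB9, MIR155HG and IFNG, and the 5 closest patterns. Positions and GC content came from GENCODE release 44 on hg38 (36366 of 36601 genes matched), promoters from RefSeq. Alternatives used DESeq2 1.42.0, limma 3.58.1, other scalings and filters, halved counts, a replicate block, left-out libraries and a GC correction (robust loess per library as offsets). Some genes are not reported here.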

Additional observations from a re-analysis of the deposited data

How the results depend on the processing

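HLA-B, HLA-C and HLA-E stayed called higher under each of 17 alternatives to the main fit, with log2 fold changes of 0.15 to 0.25, 0.14 to 0.25 and 0.19 to 0.26. HLA-F and TAP2 passed under none of their 17. The summed heavy chains stayed called in all 13 alternatives (0.15 to 0.25). TAP1 stayed called in 15 of 17, with 0.086 and 0.050 under the robust and least-squares GC corrections, and TAPBP became called under both (-0.12 and -0.16). NLRC5 kept its call in 9 of 17, and lost it also with filterByExpr (0.19, adjusted p = 0.0541). B2M turned positive under both GC corrections (0.044 and 0.040) and without shCtrl replicate 1 or 2 (0.0020 and 0.00016), and with a library left out it ranged from -0.027 to 0.0020.

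Members called higher numbered 3 under either GC correction and 0 by the study's rule, and members called lower numbered 1 under either GC correction. The study's rule, as run here, called 552 genes higher and 467 lower. The paper reports more genes in each direction, so its own calls were not reproduced. In the main test, left-out libraries gave 580 to 891 genes called higher, the lowest of them without shmiR155HG replicate 2. Without shCtrl replicate 1, shCtrl replicate 3 or shmiR155HG replicate 1, HLA-B over HLA-C reversed to -0.0056, -0.00020 and -0.0063, and its left-out range was -0.0063 to 0.021. The cause of these differences was not tested.

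Replicate numbers did not pair the samples, since same-numbered libraries had correlated deviations of -0.013, 0.012 and 0.02. With the replicate block 4 members were called higher, as NLRC5 lost its call (0.19, adjusted p = 0.0526), and 829 genes were called higher and 909 lower. Summing rows of one symbol could not be applied, as each member had 1 row. The lowest member count was 1964 (HLA-F), and 3 libraries per group limit the exact tests to p = 0.1.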
